A study of Mus musculus with 4 samples.

Results

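Muscle loses protein when the balance between building and breakdown tips, and 10 genes that set or carry out that breakdown are described here in thigh muscle of old mice. They were chosen by name as the muscle atrophy and FoxO programme, and each was found as a gene unit of its own among the 40137 gene units of the deposited tables, of which 39188 held a single gene. The study sequenced RNA from thigh skeletal muscle of wild-type male C57BL/6J mice, a widely used inbred line. There were 3 libraries from mice aged 28 months and 1 from a mouse or mice aged 18 months. It was made to check splicing results that exon arrays had given for these samples. Per the labels, the mice aged in an animal facility with free access to food, and no treatment is listed. The labels do not say that the libraries came from separate animals, so p-values measure the spread between these libraries, which may be technical.

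FoxO transcription factors are held out of the nucleus when insulin and growth factors activate the kinase Akt, and they enter it in fasting, disuse or loss of nerve supply. There they switch on ubiquitin ligases that tag muscle proteins for the proteasome. Myostatin, a growth-limiting hormone made by muscle, and glucocorticoids push in the same direction, while bone morphogenetic proteins restrain it.

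Of the 10 genes, Trim63 is a textbook target of both FoxO factors and the glucocorticoid receptor. The 250 bases before its annotated start are shown because both recognition sequences can be read there, and those before the start of Mstn because they hold several E-boxes, the letters read by myogenic factors. RefSeq promoters on GRCm38.p6 were found for 9 of the 10 genes, all but Fbxo32, with 2 starts for Runx1. Each run is written 5′ to 3′ on the plus strand. In Trim63 the capitals mark the palindromic glucocorticoid element without its outer letters (GAACA and TGTTC with any 3 bases between), followed by TGTTTAC, the FoxO core. In Mstn they mark CANNTG, the E-box.
Trim63, chr4:134314870-134315119: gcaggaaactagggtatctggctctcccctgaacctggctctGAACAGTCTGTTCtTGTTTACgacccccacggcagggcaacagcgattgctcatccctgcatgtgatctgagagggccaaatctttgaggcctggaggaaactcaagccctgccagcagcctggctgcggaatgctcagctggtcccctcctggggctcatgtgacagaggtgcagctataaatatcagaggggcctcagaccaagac
Mstn, chr1:53061390-53061639: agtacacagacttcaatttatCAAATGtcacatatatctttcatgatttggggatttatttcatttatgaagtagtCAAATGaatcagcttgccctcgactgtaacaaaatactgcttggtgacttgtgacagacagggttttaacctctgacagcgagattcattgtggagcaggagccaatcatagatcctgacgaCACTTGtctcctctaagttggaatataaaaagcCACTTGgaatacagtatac

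In Trim63 the glucocorticoid letters lay 208 to 196 bases before the start and the FoxO core 194 to 188 bases before it, with 1 base between them. On both strands, TGTTTAC stood in the same window of 3.17% of 32851 promoters and the shortened glucocorticoid element in 0.0396%, and of the 9 genes Trim63 alone held either. That shortened form was searched after the letters were seen. The full element, with AGAACA and TGTTCT around 3 bases, present in 0.00913% of promoters, did not occur in any of the 9 genes, and its single site AGAACA, which lies within the full element and occurs in 16.1% of promoters, occurred in Trim63 alone. The RUNX letters TGTGGTTT (1.49% of promoters) were in none of these windows. The letters CATTCC, read by TEAD factors (12.6% of promoters), occurred in Trim63, Foxo3, Ankrd1 and the proximal start of Runx1, and there were 2 copies in Ankrd1. The 4 E-boxes of Mstn were the highest number among these genes, and 66.2% of promoters held at least 1 E-box. A match is a reading of letters and does not show that a factor was bound.

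The libraries held 65780464 to 76163175 counts over exonic bins, the pieces of exon between annotated boundaries. Levels are given as CPM, the usual depth-scaled counts, after TMM scaling, which adjusts libraries for their make-up. The 12 muscle fibre markers were all present and summed to 174570, 92631 and 185765 CPM in the old libraries (replicates 1, 2 and 3, the order used throughout) against 116151 CPM at 18 months. The extraction text in the labels describes keratinocytes of skin, whose 7 markers summed to 12.8 to 18.2 CPM at 28 months, against 16.3 CPM at 18 months, with Krt5, Krt15 and Dsg3 at 0 in all libraries. Replicate 2 stood apart, with the highest summed fibroblast markers (3112 CPM against 1139 and 1722) and the lowest fibre markers. Results of the 10 genes that rest on it are given with and without it. For genes of the pathway lists this was done only in part. All 10 macrophage markers were lower at 18 months than in every 28-month library (180 CPM summed, against 235 to 413) and all 9 Schwann cell markers were higher (349 CPM summed, against at most 198). Summed adipocyte markers (3393 CPM, against 3898 to 4918) and satellite cell markers (16.0 CPM, against 19.8 to 31.3) were also lowest at 18 months. Singly, 5 of 7 adipocyte markers lay below, as did 1 of 6 satellite cell markers, with 1 above. Of all gene units 25.4% lay below and 26.4% above. The parts of these markers in the results below were not tested. In whole tissue, fewer cells of a type and less RNA per cell cannot be told apart.

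The ubiquitin ligase Trim63 was the most abundant of the 10 transcripts per length in every library, and Runx1 had the lowest level in every library. Levels between genes are compared only as CPM per kilobase of exon. At 28 months Trim63 stood at 132 ± 86.7 CPM per kb (SD, n = 3), Fbxo32 at 43.4 ± 28.9 and Mstn at 20.5 ± 1.75. Ankrd1 stood at 7.77 ± 6.22 CPM per kb, Klf15 at 6.33 ± 2.91, Foxo1 at 2.79 ± 0.34 and Fbxo30 at 2.49 ± 0.621. Foxo3 stood at 1.96 ± 0.515 CPM per kb, Hdac4 at 1.70 ± 0.0846 and Runx1 at 0.241 ± 0.0958. Trim63 and Fbxo32 did not overlap at 28 months (81.5 to 232 against 17.1 to 74.3 CPM per kb), nor did Mstn and Ankrd1, Klf15 and Foxo1, or Hdac4 and Runx1. Fbxo32 overlapped Mstn and Ankrd1 overlapped Klf15. The neighbouring levels from Foxo1 to Fbxo30, from Fbxo30 to Foxo3 and from Foxo3 to Hdac4 also overlapped. At 18 months the same 5 genes led in the same order, from Trim63 (88.2 CPM per kb) and Fbxo32 (34.6) through Mstn (23.2) and Ankrd1 (5.88) to Klf15 (4.75), followed by Fbxo30 (3.74). Exon lengths came from GENCODE M21 and are less sure for Klf15, Hdac4 and Ankrd1, whose number of bins differed from that annotation. The length of Fbxo32 is 6976 bases, of which 5677 are its last exon. That exon held 60.2, 54.1 and 52.2% of its counts at 28 months. The gap between Trim63 and Fbxo32 therefore depends on the length used, and whether it holds over coding bins alone was not tested.

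**Figure D1:**
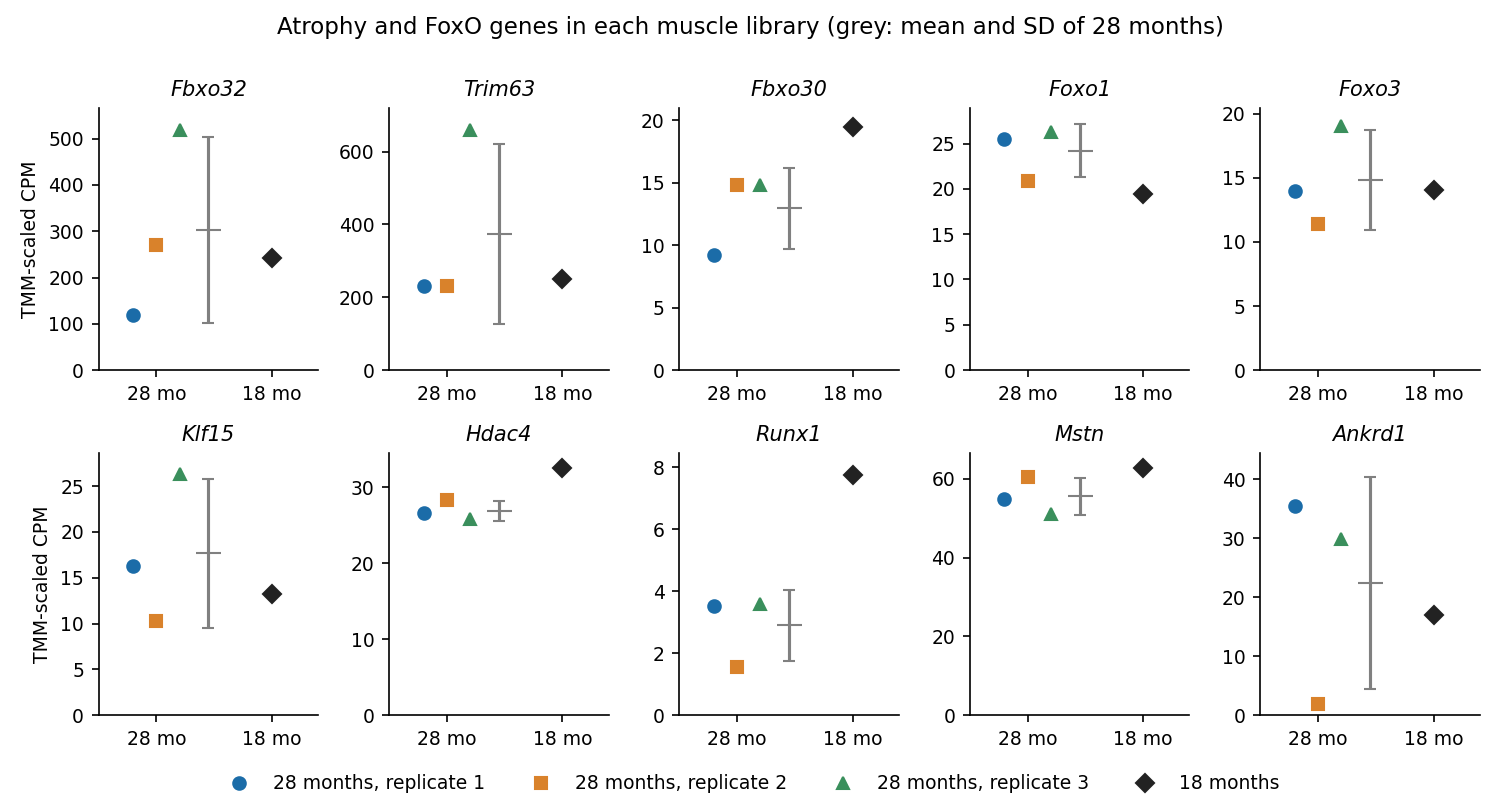
CPM after TMM scaling (vertical axis, linear from 0) of the 10 genes in each library, with the 3 libraries at 28 months as coloured points, their mean and SD in grey, and the 18-month library as a black diamond. Replicate 3 was highest of all libraries for 5 genes, and the 18-month library for 4.

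None of the 10 genes differed between the ages by the edgeR quasi-likelihood test on all 4 libraries, with Benjamini-Hochberg adjusted p from 0.859 to 0.975. The same test called 0 of 15376 gene units (0%). At an unadjusted p under 0.05 it singled out 1 of the 10 genes, Runx1, beside 4.90% of all units. The DESeq2 Wald test also called 0 of the 10 genes, beside 0.230% of units, and Runx1 was again the 1 gene at an unadjusted p under 0.05 (5.79% of units). The median log2 difference of the 10 genes, 28 minus 18 months, was 0.20, and that of all units was 0.06. The 18-month value lay outside the 28-month range for 5 of the 10 genes, beside 51.8% of units. It lay above all 28-month values for 4 genes (Fbxo30, Hdac4, Runx1 and Mstn) and below them for 1 (Foxo1). For all units these shares were 26.4% above and 25.4% below. Without replicate 2 the edgeR test called 2 of the 10 genes, Ankrd1 higher and Runx1 lower at 28 months, beside 7.39% of units called higher and 4.35% called lower. Without replicate 1 or replicate 3 it called 0 of the 10, beside 0.0130% and 0.00650% of units. The fit without replicate 2 took its spread from replicates 1 and 3 alone, and every fit assumes that the single younger library varies as the old ones do.

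Fbxo32, also called atrogin-1 or MAFbx, is the F-box part of a ubiquitin ligase that marks regulators of muscle protein synthesis and differentiation (ENSMUSG00000022358, GRCm38 chromosome 15, 58175879 to 58214932, minus strand). At 28 months its level was 119, 270 and 518 CPM, against 242 CPM at 18 months. The 28-month libraries spread over 4.35-fold and enclosed the 18-month value. The log2 difference was 0.32 ± 0.81 (SE, edgeR adjusted p 0.951), and it turned to -0.31 without replicate 3. With the bin at the 3′ end of each gene left out, the values were 58.6, 154 and 304 CPM against 81.1 CPM and the log2 difference was 1.09 (edgeR adjusted p 0.871).

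Trim63, or MuRF1, is a RING-type ligase that marks proteins of the sarcomere (ENSMUSG00000028834, chromosome 4, 134315120 to 134329629, plus strand, directly after the promoter printed above). It stood at 232, 232 and 658 CPM at 28 months, against 251 CPM at 18 months. Replicates 1 and 2 lay just under the 18-month library and replicate 3 far above it. On the log2 scale the difference was 0.58 ± 0.74 (SE, edgeR adjusted p 0.906), and it turned to -0.11 without replicate 3.

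The ratio of Trim63 to Fbxo32, in CPM, was 1.94, 0.858 and 1.27 at 28 months and 1.04 at 18 months, so the order of the ratios among the libraries was not that of either gene. Together the pair took 351, 502 and 1177 CPM at 28 months, against 492 CPM at 18 months. Replicate 3, with the highest sum, also had the highest red blood cell markers (3785 CPM against 145 to 378 in the other libraries). The part of that difference in the values of the ligases was not tested.

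Fbxo30, or MUSA1, is an F-box ligase held back by bone morphogenetic protein signalling (ENSMUSG00000047648, chromosome 10, 11281330 to 11298052, plus strand). It stood at 9.22, 14.8 and 14.8 CPM at 28 months, against 19.5 CPM at 18 months, where it was above all 28-month libraries. The log2 difference was -0.59 ± 0.36 (SE, edgeR adjusted p 0.859), opposite in sign to those of the other two ligases on all 4 libraries. It moved to 0.04 when the highest single bin stood for each gene.

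Foxo1 and Foxo3 are the FoxO factors best known for switching on the ligases. Foxo1 (ENSMUSG00000044167, chromosome 3, 52268336 to 52353221, plus strand) stood at 25.5, 20.8 and 26.3 CPM at 28 months, against 19.4 CPM at 18 months, below the lowest 28-month library. Its log2 difference was 0.32 ± 0.28 (SE, edgeR adjusted p 0.878). Foxo3 (ENSMUSG00000048756, chromosome 10, 42181841 to 42276755, minus strand) stood at 13.97, 11.4 and 19.1 CPM at 28 months, against 14.04 CPM at 18 months, inside the 28-month range. Its log2 difference was 0.08 ± 0.37 (adjusted p 0.975), and it turned to -0.15 without replicate 3. The 28-month values of Foxo1 spread over 1.26-fold and those of Foxo3 over 1.67-fold, against 4.35-fold for Fbxo32 and 2.84-fold for Trim63. FoxO activity is set largely by phosphorylation and location of the protein, which RNA counts do not measure.

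Klf15, a transcription factor raised by glucocorticoids that turns on amino acid breakdown (ENSMUSG00000030087, chromosome 6, 90462576 to 90475238, plus strand), stood at 16.3, 10.3 and 26.4 CPM at 28 months, against 13.3 CPM at 18 months. Replicate 3 was again the highest and replicate 2 the lowest, with the 18-month library between them. On the log2 scale the difference was 0.41 ± 0.56 (SE, edgeR adjusted p 0.911), and without replicate 3 it was 0.01.

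Hdac4 is a class II histone deacetylase that gathers in muscle nuclei after nerve loss and represses genes there (ENSMUSG00000026313, chromosome 1, 91928779 to 92195699, minus strand). It stood at 26.6, 28.4 and 25.8 CPM at 28 months, against 32.5 CPM at 18 months. Its 28-month libraries spread over 1.10-fold, the narrowest range among the 10 genes, and the 18-month value lay above them. The log2 difference was -0.27 ± 0.24 (SE, edgeR adjusted p 0.884).

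Runx1, a transcription factor of blood cells that muscle fibres also induce when denervated (ENSMUSG00000022952, chromosome 16, 92601466 to 92826149, minus strand), had the largest difference of the 10 genes. Its counts were 236, 153 and 217 in the old libraries and 504 in the younger one, or 3.53, 1.57 and 3.59 CPM against 7.74 CPM. The 18-month library stood above every 28-month library, at 2.67 times their mean. On the log2 scale the difference was -1.42 ± 0.53 (SE), with an edgeR p of 0.0436 and an adjusted p of 0.859, so it missed the threshold. Without replicate 2 it was -1.10 (edgeR adjusted p 0.0343), and without replicates 1 and 3 in turn it was -1.59 and -1.60, both missing the threshold. Schwann cell markers moved with Runx1, with their lowest sum in replicate 2, 198 and 161 CPM in replicates 1 and 3, and 349 CPM at 18 months. Macrophage markers had their lowest sum in the 18-month library. Lymphocyte markers summed to 11.2 to 21.8 CPM at 28 months, against 13.5 CPM at 18 months. The parts of these cell types in the level of Runx1 were not tested. Runx1 starts at a distal and a proximal promoter. The bins at the proximal start (14 to 17) held 40, 26 and 31 counts at 28 months and 94 at 18 months, while those at the distal start (18 to 22) held 2, 2 and 0 counts and 8. The proximal bins held most of these counts in all 4 libraries.

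Mstn encodes myostatin, which signals through activin type II receptors and Smad2 and Smad3 to limit muscle size (ENSMUSG00000026100, chromosome 1, 53061640 to 53068079, plus strand). It stood at 54.8, 60.6 and 51.2 CPM at 28 months, against 62.7 CPM at 18 months. The 18-month value was the highest, by a margin under the spread of 1.18-fold among the 28-month libraries. The log2 difference was -0.18 ± 0.26 (SE, edgeR adjusted p 0.915), and it was 0.10 with the highest single bin per gene.

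Ankrd1, or CARP, is an ankyrin repeat protein that binds titin and answers to stretch and nerve loss (ENSMUSG00000024803, chromosome 19, 36111961 to 36120099, minus strand). It was the most uneven of the 10 genes among the old libraries, with 35.5, 1.96 and 29.8 CPM at 28 months, against 16.96 CPM at 18 months. In counts these were 2369, 191 and 1799 against 1104. Replicate 2 lay 18.1-fold under replicate 1, far below the other 3 libraries, and the low value ran over all 9 bins of the gene, with 5 to 46 counts a bin there. On the log2 scale the difference was 0.40 ± 1.40 (SE, edgeR adjusted p 0.968) on all 4 libraries. Without replicate 2 it was 0.97 (edgeR adjusted p 0.0266), and without replicate 1 it was -0.10. Replicate 2 also had the lowest muscle fibre markers and the highest fibroblast markers, and their part in its low Ankrd1 was not tested.

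**Figure D2:**
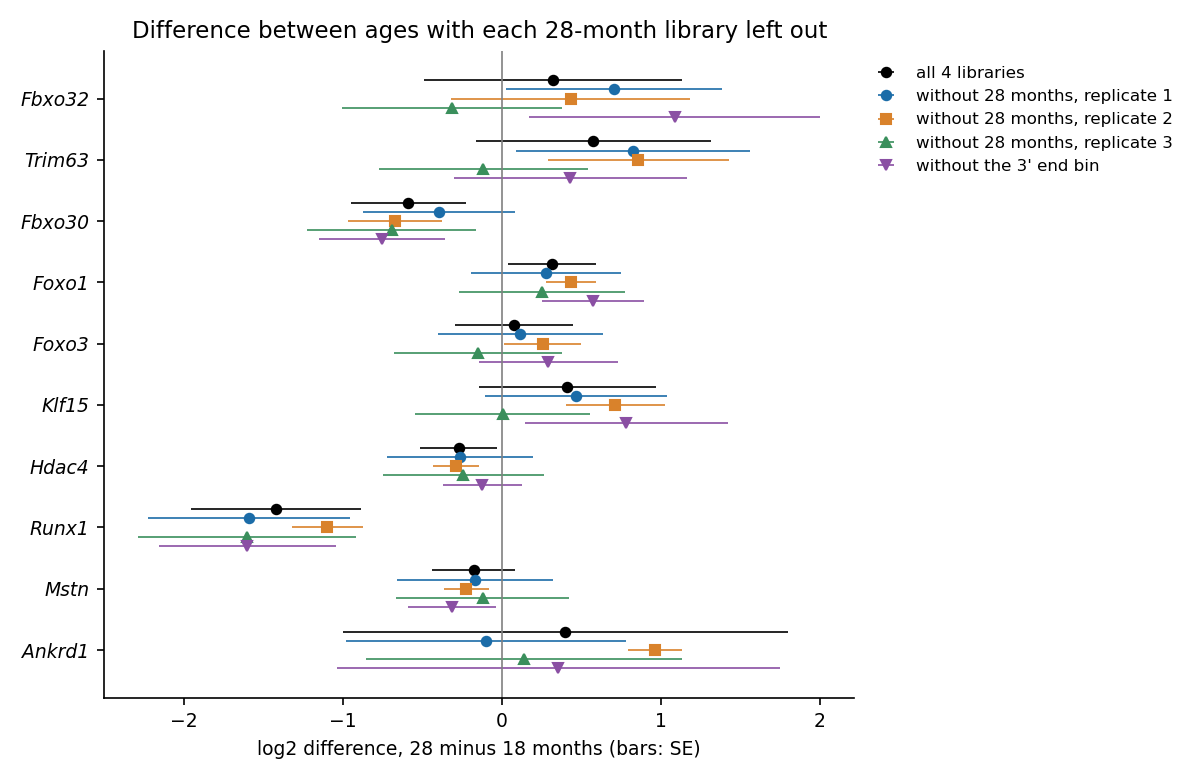
Log2 difference between 28 and 18 months (horizontal axis, bars are SE of the edgeR fit) for the 10 genes, on all 4 libraries, with each 28-month library left out, and with the bin at the 3′ end of each gene left out. Runx1 lay between -1.60 and -1.10 in all 5 fits, whereas Fbxo32, Trim63, Foxo3 and Ankrd1 changed sign when 1 library was left out.

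Each of the 10 genes held more of its counts at its 3′ end in the 18-month library than in any 28-month library. The bin used was the 3′-most bin with at least 5% of a gene's counts, and this measure was chosen after the data were seen. Among 10902 genes, 87.1% showed the same order and 2.69% the opposite one, so the 10 genes did as most genes did. Over all these genes the median share was 22.2, 20.6 and 21.6% at 28 months and 32.7% at 18 months. In Fbxo32 the bin is the last exon, with the end of the coding sequence and the 3′ untranslated region (bin 1, chromosome 15, 58175879 to 58181555). It held 60.2, 54.1 and 52.2% of counts at 28 months and 78.0% at 18 months. In Hdac4 (bin 1) the shares were 27.9, 28.5 and 22.3% against 46.2%, and in Klf15 (bin 4) 52.8, 54.5 and 49.2% against 69.6%. The differences between the 18-month share and the 28-month mean ran from 4.99 percentage points in Runx1 to 22.5 in Fbxo32. The labels give a minimum RNA integrity set for the arrays but no value per library, and the part of RNA quality in this difference was not tested. With those bins left out of the gene sums, none of the 10 genes passed the edgeR test, the 18-month values of Foxo1 and Foxo3 were below all 28-month values, and those of Fbxo30, Hdac4, Runx1 and Mstn stayed above.

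**Figure D3:**
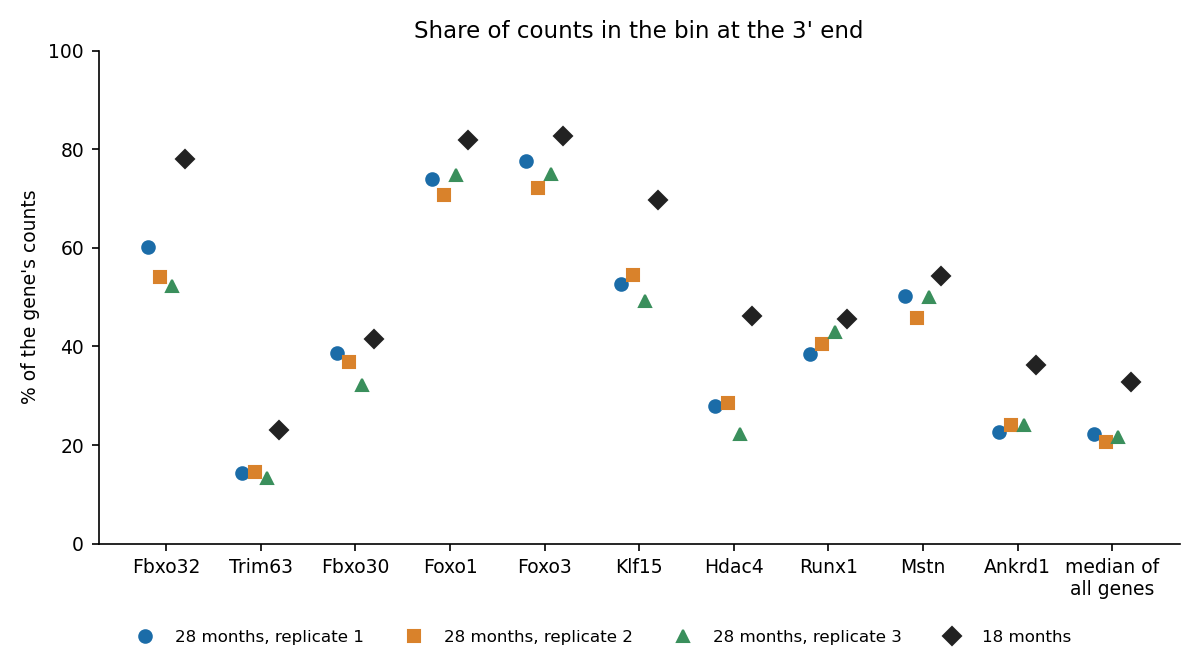
Percent of each gene's counts that fell in the bin at its 3′ end (vertical axis, 0 to 100) in each library, for the 10 genes and for the median of 10902 genes. The black diamond of the 18-month library is the highest point in every column, as in 87.1% of genes.

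Exon usage, the share of a gene's counts in each bin, was tested next because the series was made to look at splicing. The edgeR diffSpliceDGE test with Simes p-values per gene called 0 of the 10 genes at an adjusted p under 0.05, beside 3.54% of 11000 genes. At an unadjusted Simes p under 0.05 there were again 0 of the 10 genes, beside 10.6%. Of the 88 tested bins of the 10 genes, 0 passed (0.366% of all bins) and 4 had an unadjusted p under 0.05 (5.24% of all bins). These were bin 5 of Trim63 and bins 13, 14 and 15 of Hdac4, named after their values were seen.

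By the edgeR gene F test on all 4 libraries, Hdac4 had the smallest p of the 10 genes. That test gave it an adjusted p of 4.12e-06, and it was the 1 gene of the 10 called that way, beside 30.7% of genes. It was again the 1 gene called without replicate 1 (20.05% of genes) and without replicate 2 (56.1%). Without replicate 3 the test called 2 of the 10, Trim63 (adjusted p 7.83e-06) and Hdac4 (6.86e-05), beside 16.5% of genes. The limma diffSplice Simes test also called it (adjusted p 0.00656, beside 16.0% of genes), as did the edgeR Simes test without replicate 2 (0.0417, beside 29.99%). The edgeR Simes test on all 4 libraries did not (adjusted p 1.00), nor did it without replicate 1 (2.05% of genes called) or replicate 3 (1.49%), with bins of a mean of at least 30 counts (2.55%), or with first and last bins left out (2.18%). Bin 14 held 2.14, 2.75 and 1.99% of counts at 28 months and 0.567% at 18 months, on 38, 76, 31 and 12 counts, a log2 difference in use of 1.41 (edgeR adjusted p 0.511). Without replicate 2 that bin passed the edgeR test (1.29, adjusted p 0.0185), beside 6.85% of all bins. Bins 13, 15 and 16 beside it also held less at 18 months than in each 28-month library, while bins 1, 2 and 3 at the 3′ end held more. That is the direction of the 3′ shares described above. The bins of Hdac4 could not be placed on the annotation, which has 50 bins where the tables have 46.

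In Trim63, bin 5 covers 808 bases that follow an exon on its intron side (chromosome 4, 134316560 to 134317367). It held 2, 5 and 1 counts at 28 months and 37 at 18 months, or 0.0125 ± 0.0098% (SD, n = 3) of the gene's counts against 0.227%. The log2 difference in use was -3.15 (edgeR p 0.00617, adjusted p 0.449), so it missed the threshold. It missed the threshold without each 28-month library too. The coding bins on both sides of it, 4 and 6, held 1190 to 4587 counts in every library. Their shares of the gene's counts were lower at 18 months (7.29 and 7.58%) than in any 28-month library.

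In the other 8 genes the bin with the smallest p had an adjusted p of 1.00 by the edgeR test. For Fbxo32 it was the coding bin 5, with 6.40, 7.41 and 7.14% of counts against 2.65%. For Klf15 it was bin 3, with 46.6, 44.8 and 50.1% against 30.01%. For Foxo1 it was bin 2, which holds part of the coding sequence, with 24.7, 26.6 and 23.1% against 16.5%. In these 3 genes, and in Foxo3 (bin 4), the bin lies upstream of the 3′ end bin and took less at 18 months. In Fbxo30 (bin 5), Mstn (bin 6) and Ankrd1 (bin 1) it lies at the 3′ end and took more. Runx1 went the other way, with bin 15 at its proximal start holding 5.08, 3.92 and 3.23% at 28 months against 7.54% at 18 months.

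**Figure D4:**
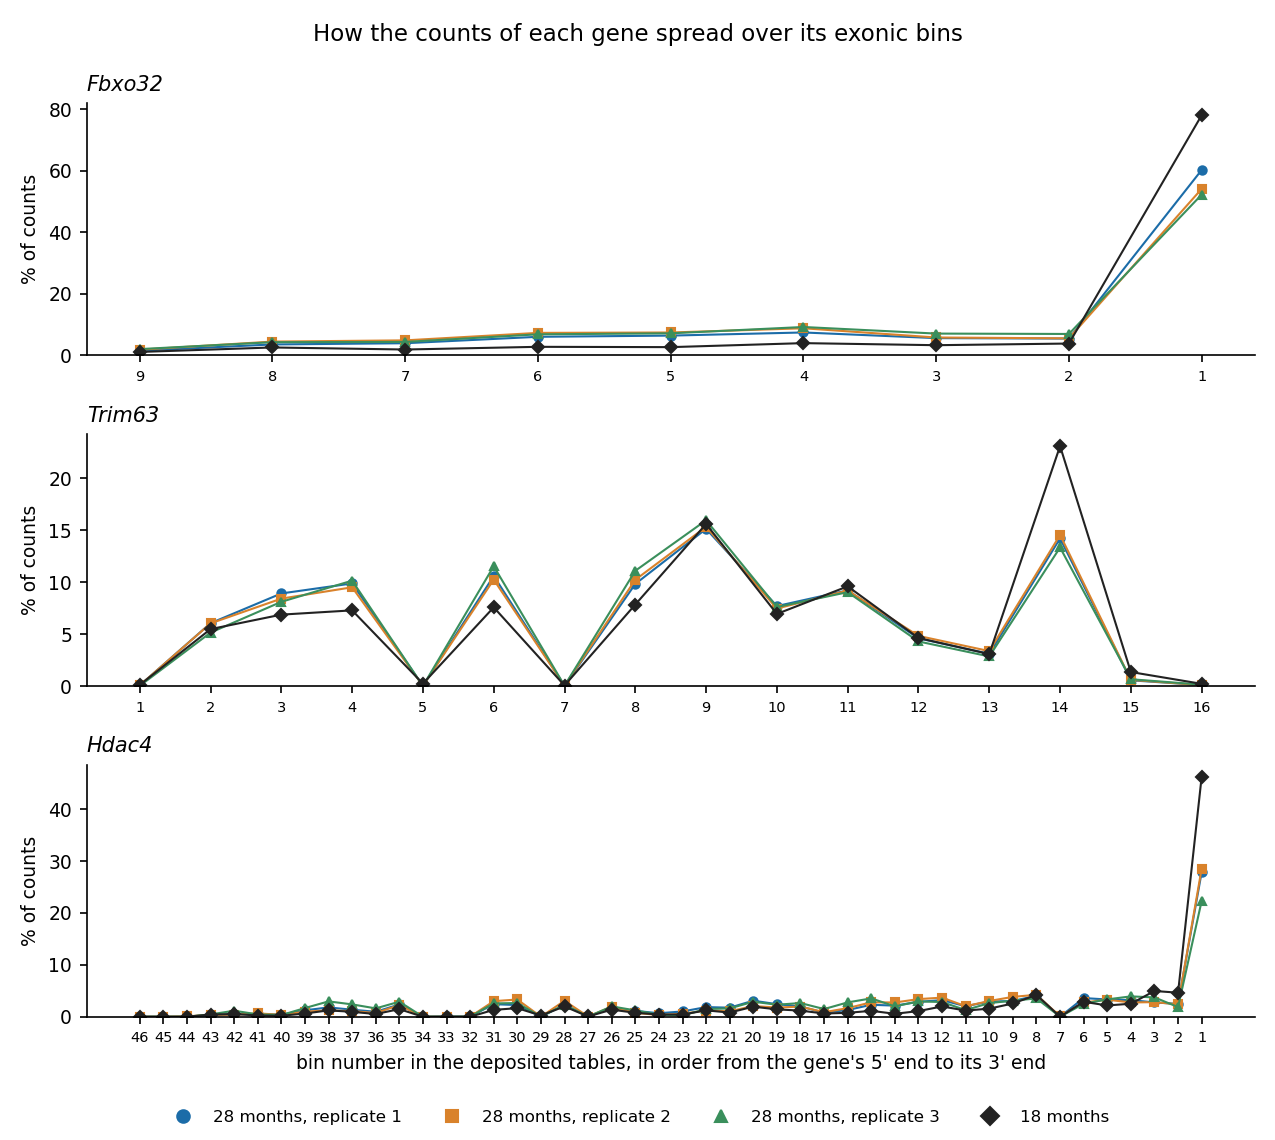
Percent of each gene's counts in each bin (vertical axis, linear from 0), with bins ordered from the 5′ end to the 3′ end, for Fbxo32, Trim63 and Hdac4 in the 4 libraries. The 18-month line is highest at bin 1 of Fbxo32 (78.0%), bin 14 of Trim63 (23.1%) and bin 1 of Hdac4 (46.2%).

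Genes around the 10 were taken as 9 lists of the pathways that feed or follow them. Of 141 listed genes 135 were tested, and 0 passed by edgeR with every library in the fit. At an unadjusted p under 0.05 there were 11, with 5 higher and 6 lower at 28 months, beside 4.90% of all units. The median log2 difference of the 135 was -0.01, against 0.06 for all units. Of the 135, 66 were higher and 69 lower at 28 months in estimate, beside 8361 and 7015 of 15376 units. Without replicate 2, 33 of the 135 were called, with 23 higher and 10 lower at 28 months, beside 11.7% of all units. All genes named from the lists had an edgeR adjusted p of at least 0.859 on all 4 libraries. With the 3′ end bins left out, some log2 differences given below turned sign. These became 0.18 for Smad3, 0.31 for Ddit4, -0.08 for Trim54, -0.09 for Bckdk and -0.26 for Myh8.

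Targets of FoxO factors showed no common direction, with 12 of 26 higher and 14 lower at 28 months in estimate, a median of -0.06 and 0 at an unadjusted p under 0.05. Pdk4, which holds back glucose oxidation, stood at 50.4, 228 and 862 CPM at 28 months, against 405 CPM at 18 months. Txnip, an inhibitor of glucose uptake, stood at 343, 897 and 996 CPM against 670 CPM. Both had their lowest value in replicate 1 and their highest in replicate 3, as Fbxo32 did. Gadd45a, a stress protein also induced by nerve loss, had 37.3, 14.2 and 44.3 CPM against 41.5 CPM, and the cell cycle inhibitor Cdkn1a had 23.1, 15.6 and 28.7 CPM against 23.0 CPM. The lysosomal protease gene Ctsl differed by 0.58 ± 0.37 (log2, SE), and the zinc finger gene Zfand5 by -0.46 ± 0.37. Of the other FoxO factors and relatives, 1 of 4 was higher and 3 were lower at 28 months in estimate, and Foxo4 stood at 42.0 to 133 CPM at 28 months against 122 CPM. Its relatives Foxk1 and Foxk2 had log2 differences of 0.08 ± 0.44 and -0.39 ± 0.33 (SE). Foxo6 was near the detection limit, with 10, 42 and 13 counts against 28.

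Among relatives of the ligases 6 of 12 were higher and 6 lower at 28 months in estimate, with a median of 0.03. At an unadjusted p under 0.05 by edgeR there was 1 of the 12, beside 4.90% of units. Fbxo40, a muscle F-box protein that marks an insulin signalling adaptor, stood at 219, 225 and 206 CPM at 28 months, against 413 CPM at 18 months. The 28-month libraries lay close together, and the log2 difference was -0.93 ± 0.28 (SE, edgeR p 0.0204). Asb2, part of another ligase, went the other way at 309, 330 and 340 CPM against 203 CPM (0.69 ± 0.31, p 0.0785). Without replicate 2 both passed the edgeR test (adjusted p 0.0175 and 0.0387), in a fit that called 11.7% of all units. The MuRF relatives Trim54 and Trim55 had 0.25 ± 0.57 and -0.12 ± 0.26, and Fbxo31 and Fbxo21 had 0.57 ± 0.60 and 0.50 ± 0.41. Of the 12 tested genes for ubiquitin supply and protein synthesis in atrophy, 5 were higher and 7 lower in estimate, with a median of -0.20 and 0 at an unadjusted p under 0.05. Nedd4, Ubb, Eif3f and Ube2d1 were the most abundant, with log2 differences of 0.29, -0.31, 0.53 and -0.27, and Ddit4, an inhibitor of growth signalling, had -0.73 ± 0.64.

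The genes of amino acid breakdown under Klf15 had the highest list median, 0.46. Of the 9 tested, 7 were higher at 28 months in estimate, beside 8361 of 15376 units. At an unadjusted p under 0.05 by edgeR there were 3 of 9, beside 4.90% of units. Prodh, which starts proline breakdown, stood at 26.6, 18.8 and 22.4 CPM at 28 months, against 8.22 CPM at 18 months, or a log2 difference of 1.46 ± 0.33 (SE, edgeR p 0.0064). Bcat2, which starts the breakdown of branched-chain amino acids, stood at 168, 105 and 150 CPM against 70.3 CPM, or 1.00 ± 0.39 (p 0.048). The third was the alanine aminotransferase gene Gpt, at 50.4, 33.4 and 36.2 CPM against 18.6 CPM (1.11 ± 0.36, p 0.0258). In each of these 3, singled out by p in the same values, the 18-month library lay below all 28-month libraries, as in 25.4% of units. Klf15 itself had the 18-month value inside the 28-month range. The 4 most abundant genes of the list differed in sign, with 0.28 for Acadm, -0.33 for Got1, -0.50 for Gpt2 and 0.14 for Bckdk. Acadm acts in fatty acid oxidation and Bckdk holds back branched-chain breakdown, so their signs are no measure of amino acid breakdown. Both are among the 7 of 9 higher genes and enter the list median. Without replicate 2, 5 of the 9 passed the edgeR test, all higher at 28 months, beside 7.39% of units.

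Among genes of the glucocorticoid response 9 of 14 were higher at 28 months in estimate, with a median of 0.29, beside 8361 of 15376 units. At an unadjusted p under 0.05 by edgeR there were 3 of the 14, beside 4.90% of units. The receptor Nr3c1 stood at 83.2, 115 and 77.0 CPM at 28 months, against 106 CPM at 18 months (-0.20 ± 0.34, SE). Its target Fkbp5 stood at 93.9, 26.4 and 121 CPM against 32.0 CPM, so that replicate 2 resembled the 18-month library, and without replicate 2 the log2 difference was 1.77 (edgeR adjusted p 0.0158), in a fit that called 11.7% of all units. Another target, Tsc22d3, went the opposite way, at 136, 158 and 140 CPM against 242 CPM (-0.74 ± 0.28, p 0.042), and it too passed without replicate 2 (-0.79, edgeR adjusted p 0.0233). The insulin signalling gene Pik3r1 had 0.89 ± 0.34 (p 0.0433, and an edgeR adjusted p of 0.0167 without replicate 2), and the transcription factor gene Cebpb -1.05 ± 0.34 (p 0.0256). Sgk1, a kinase gene induced by steroids, had 0.31 ± 0.37, and Hsd11b1, which reactivates glucocorticoids, had 0.84 ± 0.62.

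In the pathway around myostatin 9 of 24 tested genes were higher and 15 lower at 28 months in estimate, with a median of -0.14. Of all units, 8361 of 15376 were higher. At an unadjusted p under 0.05 by edgeR there were 3 of the 24, beside 4.90% of units. The receptor Acvr2b stood at 1.57, 1.88 and 2.15 CPM at 28 months, against 1.04 CPM at 18 months (0.84 ± 0.51, SE). The signal carrier Smad3 stood at 67.6, 68.7 and 54.5 CPM against 93.2 CPM (-0.55 ± 0.28, but 0.18 without the 3′ end bin). The close relative of myostatin, Gdf11, stood at 10.2, 4.399 and 6.71 CPM against 12.4 CPM (-0.80 ± 0.49). Fst, the inhibitor that traps myostatin, stood at 3.40, 11.1 and 4.94 CPM against 9.52 CPM. The bone morphogenetic protein receptor Bmpr2 had the list's smallest p, at 63.3, 67.9 and 67.1 CPM against 118 CPM (-0.83 ± 0.25, edgeR p 0.0192). The other genes at an unadjusted p under 0.05 were Acvr1, another receptor of that pathway (-0.87 ± 0.27), and Ltbp3, which stores latent growth factor (0.76 ± 0.26). Dcn, Bmpr1a and Fstl1 had 0.26, -0.45 and -0.62.

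The genes of nerve loss that lie around Hdac4 and Runx1 had a median of 0.14, with 10 of 18 tested higher and 8 lower in estimate and 0 at an unadjusted p under 0.05. Myog, the myogenic factor that drives the ligases after denervation, stood at 1.87, 1.82 and 2.12 CPM at 28 months, against 3.72 CPM at 18 months (-0.94 ± 0.39, SE, edgeR p 0.0603). It lay above all 28-month libraries at 18 months, as Runx1 and Hdac4 did. Of the 18 tested genes of the list, 4 lay above and 3 below, beside 26.4% and 25.4% of all units. Chrna1, a subunit of the acetylcholine receptor, stood at 29.1, 10.1 and 26.1 CPM against 15.0 CPM, and the receptor organiser Musk at 19.1, 12.8 and 21.8 CPM against 21.4 CPM. The partner of Runx1, Cbfb, stood at 86.4, 101 and 89.4 CPM against 125 CPM (-0.44 ± 0.27). Mef2c, Chrnb1 and Myh8 had -0.70 ± 0.40, 0.51 ± 0.64 and 0.15 ± 0.57. Schwann cell markers were higher at 18 months, as given above, and their part in these values was not tested.

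Genes of the titin complex and of mechanical stress had a median of -0.30, with 7 of 16 higher and 9 lower in estimate. At an unadjusted p under 0.05 by edgeR there was 1 of the 16, beside 4.90% of units. The relatives of Ankrd1 shared its low value in replicate 2, with 77.0, 27.6 and 113 CPM at 28 months, against 47.0 CPM at 18 months for Ankrd2 and 3648, 921 and 2995 CPM against 1436 CPM for Ankrd23. Their fold between replicate 2 and the others was smaller than that of Ankrd1. The summed muscle fibre markers were also lowest in replicate 2 (92631 CPM, against 174570 and 185765 CPM in replicates 1 and 3). Their part in these values was not tested. The Z-disc sensor Csrp3 stood at 41.8, 26.0 and 75.6 CPM against 34.8 CPM. Xirp2, an actin-binding protein, was lower at 28 months in estimate, at 983, 620 and 921 CPM against 1884 CPM (-1.16 ± 0.41, SE, edgeR p 0.0352). Ttn and Flnc had -1.07 ± 0.50 and 0.42 ± 0.65.

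**Figure D5:**
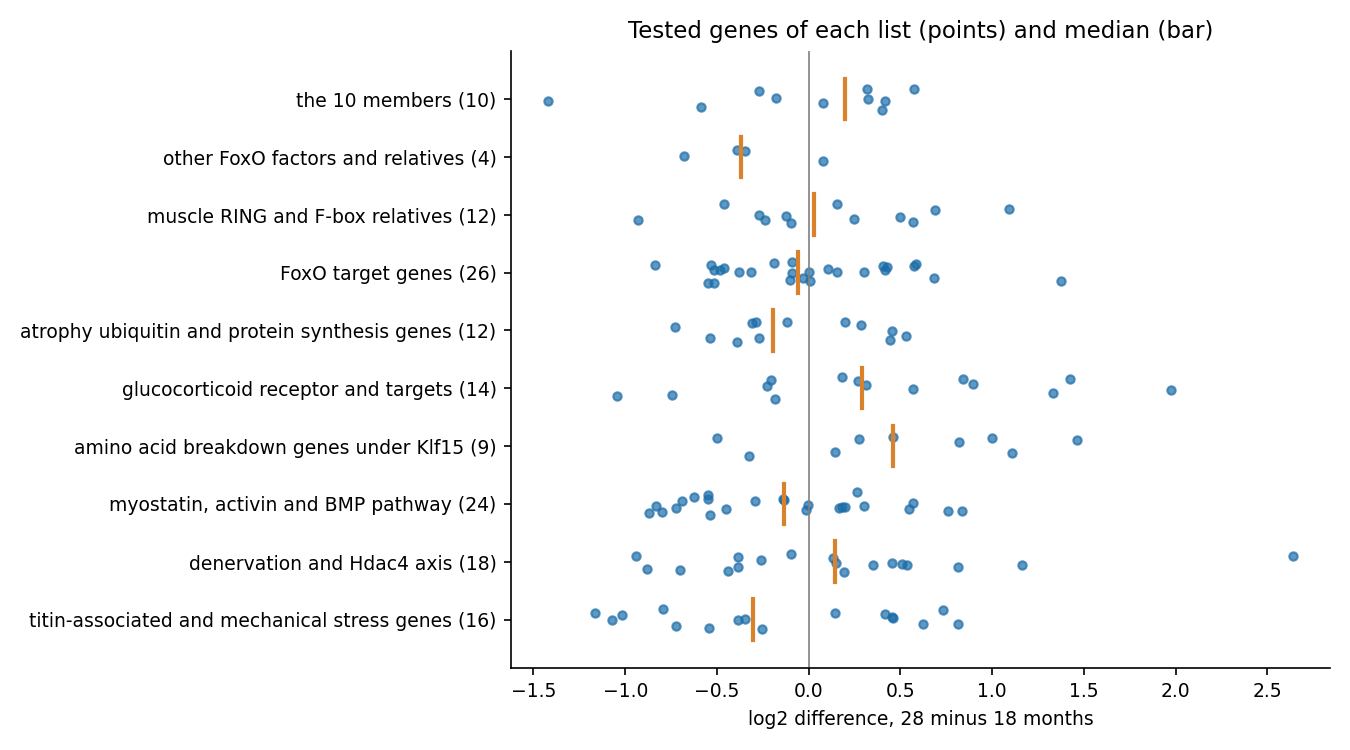
Log2 difference between 28 and 18 months (horizontal axis) of each tested gene, for the 10 genes and by list, with the number tested in brackets, the genes as points and the median as an orange bar. List medians ran from -0.37 for the other FoxO factors to 0.46 for amino acid breakdown, with no single gene past the edgeR test.

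The genes whose levels followed the ligases most closely over the 4 libraries were ranked by the root mean square distance between log2(CPM + 0.5) profiles, each centred on its own mean, among 7198 genes of at least 10 CPM. For Fbxo32 the nearest was Klhl38 (distance 0.105), at 13.2, 25.2 and 55.4 CPM at 28 months, against 26.6 CPM at 18 months. Klhl38 encodes a kelch-like protein and is the neighbour of Fbxo32 on chromosome 15 (58314573 to 58324169, minus strand). The gap between the genes is 99.6 kb, and 0 single-gene units of the tables lie in it. Next came Tmem140 (0.205) and Txnip (0.29). For Trim63 the nearest were Ube2l6 (0.101), a ubiquitin-conjugating enzyme, Cep85l (0.123) and Mkrn1 (0.14), a RING-type ligase. Trim63 ranked 22 for Fbxo32, and Fbxo32 ranked 73 for Trim63 (distance 0.437 both ways). Klf15 ranked 17 for Trim63, while Ankrd1 ranked 7184 and 7152 for the pair. With 4 libraries many genes come close by the high value of 1 library alone, which for Trim63 is replicate 3.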

How the data were processed

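Per the submitters' processing notes, the tools were bcl2fastq 1.8.3 and TopHat2 2.0.4, with the GRCm38 build. Deposited files hold raw counts per exonic bin, 1 file per library, with no normalization. The sources used here do not give the counter, annotation release or strand setting. The 5 special entries that name no gene equalled 3.36 to 5.20% of the entries' total and were left out. A fragment that spans several bins may count in each, so a gene sum can count it more than once.

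Bins were summed per gene. The edgeR quasi-likelihood test, with TMM scaling, took units whose counts averaged 10 or more (2 residual and 3.17 prior degrees of freedom), and bins of at least that mean with diffSpliceDGE. A call is an adjusted p (Benjamini-Hochberg, over all units) under 0.05. The SE is the log2 difference over the root of its F statistic. Lists are described by counts and medians, with no test of a list. No correction for RNA quality was made.

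The genes, lists and tests were chosen with earlier results of these data known. Named from the lists were the 4 most abundant genes of each, genes fixed by name, and those at an unadjusted p under 0.05, the last after their values were seen. Of the genes fixed by name, Hdac5 has no value because it shares a unit with another gene. Symbols came from a table of gene names that covered 39039 of 40137 units, positions from GENCODE M21 on GRCm38, and bins of 7 of the 10 genes had the same number there. The scripts were tested on simulated data. The spread set there for genes was smaller than that of these data, so that test gives no detection rate for them. Versions: edgeR 4.0.16 and DESeq2 1.42.0 with limma 3.58.1 in R 4.3.3, and pandas 2.3.3, numpy 2.4.6 and matplotlib 3.10.9 in Python 3.11.15.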

Additional observations from a re-analysis of the deposited data

How the results depend on the processing

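The alternatives for expression were RLE size factors, no count filter, a mean count of at least 100, the DESeq2 Wald test, the highest single bin per gene, library sizes without mitochondrial and the 20 most abundant genes, and each 28-month library left out. Gene sums without the 3′ end bin, and the repeat of the list counts under all of these, were added after the data were seen. The number of the 10 genes called was 0 in each, except that leaving out 28-month libraries gave 0 to 2, with 2 (Ankrd1 and Runx1) without replicate 2. Calls among the 135 list genes ranged from 0 to 33 in the same way, with 33 without replicate 2. Leaving out each 28-month library moved the log2 difference from -0.31 to 0.71 for Fbxo32, -0.11 to 0.86 for Trim63, -0.15 to 0.26 for Foxo3 and -0.10 to 0.97 for Ankrd1. With the highest single bin, Fbxo30 turned to 0.042 and Mstn to 0.10, and the cause was not tested. Exon usage called 0 of the 10 genes by edgeR Simes, 1 (Hdac4) by limma, 1 (Hdac4) by the gene F test, and 0 to 1 by Simes with 28-month libraries left out. The gene F test, repeated with those libraries left out after the data were seen, called 1 to 2, with Trim63 added without replicate 3. The edgeR Simes test called 0 with bins of a mean of at least 30. With first and last bins left out, that Simes test called 0 of the 6 testable genes. No paired analysis was possible because the 18-month group has 1 library, whose label has no replicate number. Over all units the edgeR test called 0 on 4 libraries, 1806 without replicate 2, 2 without replicate 1 and 1 without replicate 3, and exon usage called 389, 3299, 226 and 164 genes. With a single 18-month library, age cannot be told apart from that library. A change under about the spread of the 28-month libraries was not detectable, and larger differences also went uncalled. On all 4 libraries Fbxo40 had an edgeR adjusted p of 0.859, with 219, 225 and 206 CPM at 28 months against 413 CPM. The absence of calls therefore does not show that levels were unchanged.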
